A study of Mus musculus with 8 samples.

Results

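The core circadian clock was examined at the level of 10 genes, Arntl, Clock, Per1, Per2, Per3, Cry1, Cry2, Nr1d1, Nr1d2 and Dbp, in mouse left ventricle. Every probe annotated with a symbol of these genes was taken, which gave 17 probes of the 25697 on the array and 10 of its 18120 gene symbols. The tissue was left ventricle including septum, taken at 12 months of age from Swiss Agouti mice, with 1 Illumina bead array per mouse. The 4 heterozygotes were Scn5adelta/+, with 1 knock-in allele labelled as a KPQ deletion in the gene of the cardiac sodium channel, and the 4 wild-type mice were their littermates. No treatment is named for either genotype. The sources used here do not give the clock time of tissue collection, the light schedule or the sex of the mice.

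The clock of mammalian cells is a transcriptional loop. Arntl (BMAL1) and Clock encode the activating heterodimer, which binds E-box sequences and drives the Per, Cry and Nr1d genes and outputs such as Dbp. PER and CRY proteins inhibit the heterodimer, and the nuclear receptors encoded by Nr1d1 and Nr1d2 (REV-ERB alpha and beta) repress Arntl through ROR elements. In mouse tissues that include the heart, Arntl transcripts therefore run nearly opposite in phase to those of Dbp and the Nr1d genes across the day. Each mouse here was sampled once, so the arrays give levels of these transcripts and no rhythm.

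Between 10094 and 11545 probes per array were detected (detection p under 0.01), with the largest number in heterozygote 3. The array of heterozygote 3 also stood apart from the rest, as it correlated with the rest at 0.95 on average, whereas the other 7 mice reached 0.972 to 0.978. The mean deposited intensity was lowest in wild type 1 (166.5) and highest in heterozygote 4 (245.5). Of 9 ventricular cardiomyocyte markers, 8 had a probe and all 8 of these passed the detection filter, and Myh6, Myl2 and Tnni3 were detected on 8 of 8 arrays. In a tissue sample, fewer cells of a type and less RNA per cell cannot be told apart.

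Promoter windows from RefSeq (GRCm38.p6, 250 bases before to 50 after a gene's start) were available for 9 of the 10 genes, and Per2 was not among them. The windows shown belong to the genes on which the relations below turn, Arntl and Dbp, and to Ciart, Per1 and Nr1d1, which are textbook targets of the heterodimer. Capitals mark matches, on either strand, to the E-box CACGTG, its variant CACGTT, the D-box forms TTATGTAA and TTACGTAA, or the ROR element TAGGTCA. No 2 of these motifs overlap in the windows shown.
Arntl (chr7:113207261-113207560, plus strand): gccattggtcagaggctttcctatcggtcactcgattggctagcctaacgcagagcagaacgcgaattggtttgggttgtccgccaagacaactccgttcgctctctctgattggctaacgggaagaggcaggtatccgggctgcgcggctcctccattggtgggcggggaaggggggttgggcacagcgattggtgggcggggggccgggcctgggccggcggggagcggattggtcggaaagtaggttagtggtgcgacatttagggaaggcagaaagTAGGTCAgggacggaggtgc
Dbp (chr7:45704997-45705296, plus strand): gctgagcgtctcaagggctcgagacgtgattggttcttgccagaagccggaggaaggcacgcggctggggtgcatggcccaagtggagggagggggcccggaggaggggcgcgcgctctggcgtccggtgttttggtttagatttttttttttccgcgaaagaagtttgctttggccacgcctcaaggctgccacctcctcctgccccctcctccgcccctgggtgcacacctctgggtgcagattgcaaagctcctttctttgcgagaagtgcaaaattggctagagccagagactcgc
Ciart (chr3:95882179-95882478, minus strand): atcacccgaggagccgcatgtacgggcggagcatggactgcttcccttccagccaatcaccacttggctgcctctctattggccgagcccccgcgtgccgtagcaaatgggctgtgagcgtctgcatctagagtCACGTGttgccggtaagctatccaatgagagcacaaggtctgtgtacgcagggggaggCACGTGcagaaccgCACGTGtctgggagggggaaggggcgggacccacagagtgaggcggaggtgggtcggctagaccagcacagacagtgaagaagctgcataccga
Per1 (chr11:69098699-69098998, plus strand): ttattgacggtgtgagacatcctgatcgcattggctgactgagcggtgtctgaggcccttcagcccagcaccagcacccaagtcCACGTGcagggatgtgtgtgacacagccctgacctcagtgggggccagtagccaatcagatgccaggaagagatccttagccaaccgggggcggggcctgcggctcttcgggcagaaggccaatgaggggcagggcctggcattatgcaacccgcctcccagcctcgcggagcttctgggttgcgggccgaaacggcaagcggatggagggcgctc
Nr1d1 (chr11:98775328-98775627, minus strand): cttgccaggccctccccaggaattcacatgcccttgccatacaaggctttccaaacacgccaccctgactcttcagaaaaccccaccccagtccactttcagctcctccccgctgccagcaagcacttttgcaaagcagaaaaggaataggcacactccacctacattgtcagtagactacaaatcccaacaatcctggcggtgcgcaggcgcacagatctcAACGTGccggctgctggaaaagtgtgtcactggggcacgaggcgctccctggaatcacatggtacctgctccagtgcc

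Each window spans an annotated start and holds the first transcribed bases. Arntl has a pair of overlapping windows, and the downstream one, shown here, held 1 ROR element 31 bases after its start. Ciart held 3 copies of CACGTG, which began 116, 58 and 44 bases before its start. Per1 held 1 copy 166 bases before its upstream start, and Nr1d1 held the variant 28 bases before its start. Of the 32851 windows in the table, 7.15% held CACGTG, 4.68% CACGTT, 0.938% TTATGTAA, 0.119% TTACGTAA and 2.61% TAGGTCA. None of these letters occurred in the windows of Dbp, Nr1d2 and Clock, the upstream window of Arntl or the downstream window of Per1. Their absence says nothing of sites outside the windows. Among the genes not shown, Cry1 held the E-box and its variant, Cry2 the variant and Per3 D-boxes.

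Of the 17 probes, 12 passed the detection filter (p under 0.01 on at least 4 of 8 arrays), and they represented 8 of the 10 genes. Cry1, which encodes a repressor of the loop, was detected on 0 of 8 arrays, with deposited intensities between -4.14 and 1.24. Per3, a less essential Per gene, was detected on 1 array, that of heterozygote 3 at 12.6, and lay between -2.26 and 6.90 on the others. No difference between genotypes is given for these 2 genes. The remaining undetected probes were 2 for Clock and 1 for Per2, and other probes of both genes were detected on all arrays.

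Arntl, the activating partner of Clock, had deposited intensities of 32.6, 65.6, 66.3 and 47.7 in heterozygotes 1 to 4, against 20.3, 89.9, 46.6 and 37.4 in wild types 1 to 4. The genotypes overlapped throughout, with the lowest and the highest mouse both wild type. Clock, which encodes the histone acetyltransferase partner, had 525, 601, 582 and 669 in heterozygotes, against 430, 686, 640 and 662 in wild types. Clock was among the steadiest of the genes, with a highest value 1.60 times the lowest, and its genotypes overlapped as well.

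Dbp, a transcription factor that binds D-boxes and a direct output of the heterodimer, had 2183, 682, 937 and 1298 in heterozygotes, against 1455, 1134, 1684 and 1434 in wild types. Heterozygotes 2 and 3 were lowest before and after normalization, whereas heterozygote 1 was highest in deposited intensity and wild type 1, the dimmest array, after normalization (10.95 in heterozygote 1 and 10.97 in wild type 1). Nr1d1 had 219, 195, 128 and 187 in heterozygotes, against 169, 180, 194 and 160 in wild types. Heterozygote 3 lay below the range of the wild types, and after normalization heterozygote 4 did too (7.44, against a lowest wild type of 7.48). Heterozygotes 1 and 2 lay above that range in deposited intensity and within it after normalization (7.81 and 7.82, against a highest wild type of 7.98). Nr1d2 had 251, 108, 109 and 238 in heterozygotes, against 144, 204, 240 and 359 in wild types. Heterozygotes 2 and 3 were lower than every wild type, while heterozygotes 1 and 4 lay within the wild-type range.

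Per1, a light- and glucocorticoid-responsive repressor gene, had 174, 80.8, 216 and 160 in heterozygotes, against 91.4, 201, 146 and 96.1 in wild types. Per2, its partner in the repressor complex, had 165, 59.4, 215 and 133 in heterozygotes, against 64.2, 96.4, 160 and 151 in wild types. For the brightest probe of both Per genes, heterozygote 3 was highest and heterozygote 2 lowest. The other detected Per1 probe was highest in wild type 2 (60.9). Cry2, a repressor and the dimmest gene that passed the filter, had 22.4, 6.73, 28.8 and 7.33 in heterozygotes, against 14.1, 37.0, 25.7 and 13.5 in wild types. It was detected in 2 of 4 heterozygotes and 4 of 4 wild types, and the undetected mice were heterozygotes 2 and 4.

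**Figure D1:**
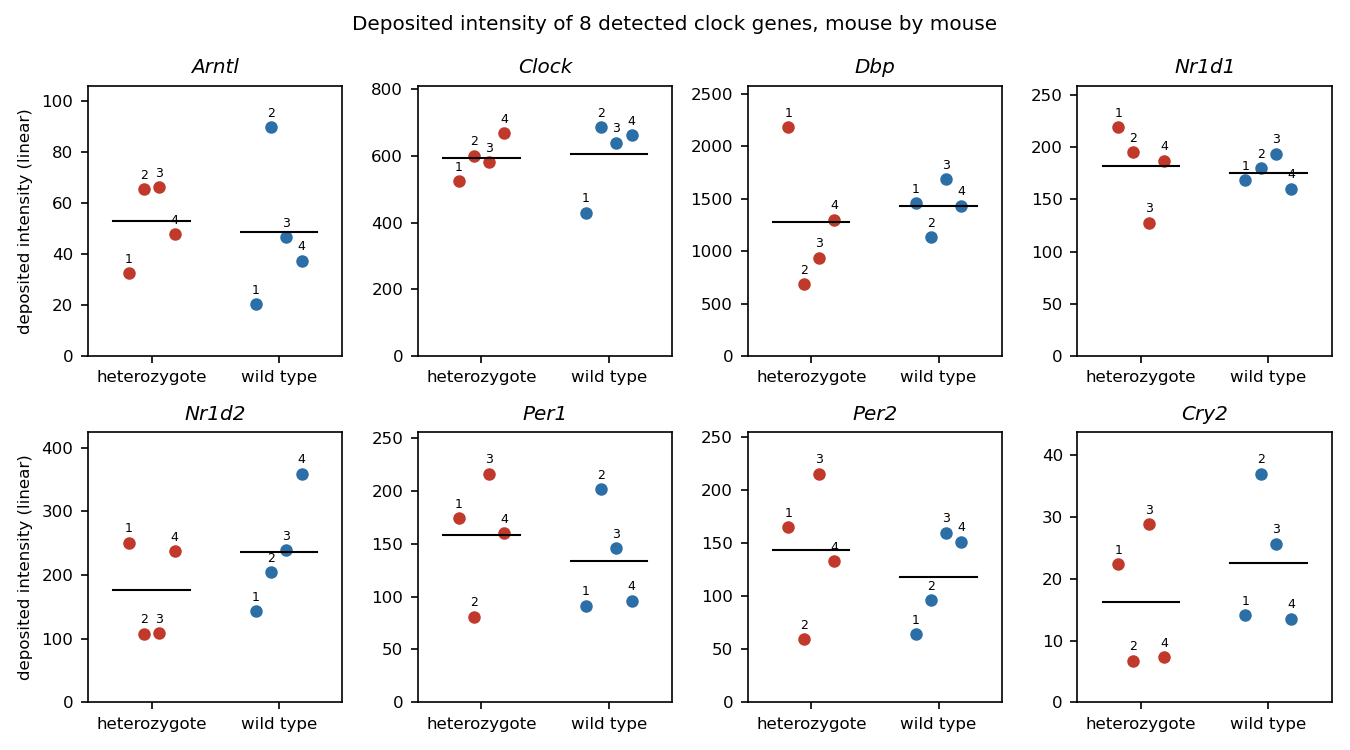
Deposited linear intensity of the brightest probe of each of 8 detected clock genes, with 1 point per mouse labelled by mouse number, heterozygotes (red) to the left of wild types (blue), and black bars at the mean of 4 mice. The genotypes overlap in every panel; Dbp ranges from 682 to 2183 in heterozygotes and from 1134 to 1684 in wild types.

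The comparison of the genotypes asks whether the sodium channel deletion is accompanied by a shift in clock transcripts at this age. No clock gene passed the test. Intensities were background-corrected, quantile-normalized and taken to log2, and differences are heterozygote minus wild type on that scale. Of 8146 genes tested with limma, 0 (0%) passed an adjusted p under 0.05, among them 0 of the 8 clock genes. Without adjustment, 339 genes (4.16%) had a p under 0.05, of which 181 (2.22% of all) were higher and 158 (1.94%) lower, and again 0 of the 8 clock genes. The genotypes did not overlap in 213 genes, or 2.61%, and in 0 clock genes.

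The targets Nr1d2, Dbp, Cry2 and Nr1d1 and the activator Clock had lower normalized means in heterozygotes, and Per1, Per2 and Arntl had means within 0.07 of each other. In deposited intensity, Nr1d1 alone of the genes with lower means went the other way (a mean of 182 in heterozygotes and 176 in wild types). For Nr1d2 the normalized means were 7.39 ± 0.57 in heterozygotes and 8.02 ± 0.48 in wild types (SD, n = 4 each), a difference of -0.63 (95% interval -1.32 to 0.06; limma adjusted p = 0.983). For Dbp they were 10.12 ± 0.61 in heterozygotes and 10.59 ± 0.38 in wild types (SD, n = 4 each), a difference of -0.48 (-1.14 to 0.19; limma adjusted p = 0.983). Cry2 differed by -0.34 (-0.83 to 0.15), Clock by -0.22 (-0.53 to 0.08) and Nr1d1 by -0.18 (-0.63 to 0.28). Arntl differed by 0.07 (-0.50 to 0.63), Per2 by 0.04 (-0.65 to 0.74) and Per1 by 0.03 (-0.47 to 0.53). The intervals of all 8 genes include 0 and leave room for changes of over 0.5 in at least 1 direction.

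Over the 8 clock genes the median difference was -0.20, with 3 genes higher and 5 lower in heterozygotes, beside a median of 0.01 over all 8146 genes, of which 53.1% were higher. The value of Dbp was -0.28 without heterozygote 2 and -0.76 without heterozygote 1. That of Nr1d2 was -0.40 without wild type 4 and -0.82 without heterozygote 1, and that of Cry2 was -0.22 without heterozygote 4 and -0.47 without heterozygote 1. Without heterozygote 1 the unadjusted p in limma was 0.011 for Dbp and 0.025 for Nr1d2 (adjusted p 0.994 each). Without wild type 2 it was 0.0499 for Nr1d2 (limma adjusted p = 0.773). Nr1d1 moved to 0.0013, Per1 to -0.11 and Per2 to -0.15 without heterozygote 3, whereas Dbp was -0.41 and Nr1d2 -0.42 without it. Macrophage markers also differed in mean between the genotypes: all 8 passed the filter and were higher in heterozygotes, 0 of them past the adjusted test. Their summed deposited intensity was 916 to 2491 in heterozygotes, highest in heterozygote 3, and 549 to 1174 in wild types, and their part in the clock gene values was not tested.

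Other detected probes of the same genes were read in a fit over all 10547 detected probes, where 0 (0%) passed. The probes of a pair differed in sign for Per1 (0.03 and -0.15), Per2 (0.04 and -0.02) and Nr1d2, and only those of Nr1d1 (-0.18 and -0.08) had the same sign. The dimmer Per2 probe followed the brighter one closely over the mice (r = 0.965, rho = 0.976, exact permutation p = 0.000124 and 0.000397, n = 8; 0.923 without heterozygote 2 and wild type 2). Over the 4 genes with paired probes the adjusted p of r was 0.000496 for Per2 and 0.0146 for Nr1d1 (r = 0.849, rho = 0.833, exact permutation p = 0.00732 and 0.0154, n = 8). The r of the Nr1d1 probes was 0.425 without heterozygote 3 and wild type 1, so it rests on those mice. The paired Per1 probes were related less closely (r = 0.538, rho = 0.429, exact permutation p = 0.169 and 0.299, adjusted p of r 0.225, n = 8; 0.305 without heterozygotes 2 and 3). The paired Nr1d2 probes lay further apart, at -0.63 and 0.16 (r = 0.245, rho = 0.429, exact permutation p = 0.561 and 0.299, n = 8; 0.428 without heterozygote 3 and wild type 4). The second Nr1d2 probe was dim, with intensities between 0.0711 and 15.0, and was detected on 4 of 8 arrays. The lower mean of Nr1d2 in heterozygotes therefore comes from 1 of its 2 probes.

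**Figure D2:**
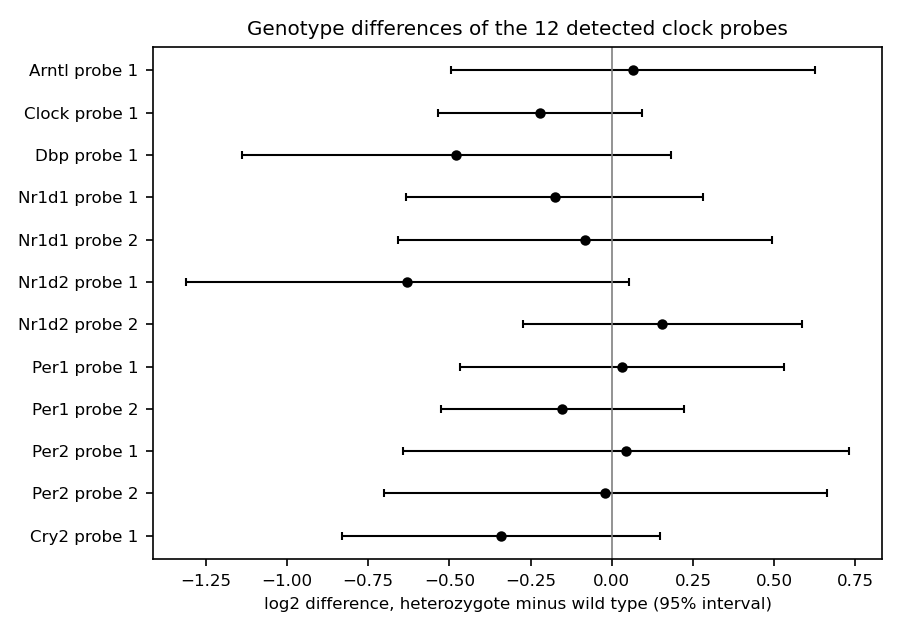
Log2 difference (heterozygote minus wild type) of each of the 12 detected clock probes with its 95% interval from limma (n = 4 mice each); probe 1 is the brightest probe of its gene. All 12 intervals cross 0, and the paired probes of Per1, Per2 and Nr1d2 lie on opposite sides of it.

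Several of these transcripts varied more between mice of the same genotype than most genes did. The within-genotype SD of Per2 was 0.53, of Nr1d2 0.53, of Dbp 0.51 and of Arntl 0.42, beside a median of 0.26 over all 8146 genes. These SDs lay at percentiles 93.1, 92.9, 92.2 and 85.7 of all genes. Per1 (0.36), Cry2 (0.35) and Nr1d1 (0.32) lay at percentiles 77.4, 75.8 and 68.9, and Clock (0.15) at 14.9. In normalized intensity the highest mouse exceeded the lowest 3.89-fold for Nr1d2, 2.74-fold for Dbp, 2.57-fold for Per2 and 2.20-fold for Arntl.

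Mouse by mouse, Dbp and Nr1d2 lay mostly on the other side of their mean from Arntl. Expressed as the log2 deviation from a gene's own mean over the 8 mice, Arntl was at -0.34, 0.48, 0.13 and -0.14 in heterozygotes 1 to 4, and at -0.55, 0.58, -0.07 and -0.09 in wild types 1 to 4. Dbp was at 0.59, -0.84, -0.45 and -0.26 in heterozygotes, and at 0.62, -0.30, 0.32 and 0.32 in wild types. The sign of Dbp was opposite to that of Arntl in 7 of 8 mice, the exception being heterozygote 4. Nr1d2 was at 0.27, -0.63, -0.94 and 0.04 in heterozygotes, and at 0.06, -0.06, 0.24 and 1.02 in wild types, opposite in sign to Arntl in 8 of 8 mice. Nr1d1 was opposite in 6 mice, Per2 in 5 and Per1 in 3. Some of the Nr1d2 deviations lay close to its mean (0.04, 0.06 and -0.06). The second, dim Nr1d2 probe shared the sign of Arntl in heterozygote 3 (0.03) and wild type 3 (-0.30). How many of all genes reach such sign counts was not computed, so the counts carry no test.

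Both mice numbered 1 had low Arntl with high Dbp, and both mice numbered 2 had high Arntl with low Dbp, so the extremes of this axis held mice of either genotype. The difference between the Dbp and Arntl deviations was 0.93 in heterozygote 1 and 1.17 in wild type 1, and -1.32 in heterozygote 2 and -0.88 in wild type 2. Heterozygotes 3 and 4 were at -0.58 and -0.12, and wild types 3 and 4 at 0.39 and 0.41. The labels give the numbers only as those of biological replicates. Over all genes, deviations from the genotype means correlated at -0.218, -0.252, -0.460 and 0.209 between the mice numbered 1 to 4. A correlation over all genes cannot show whether same-numbered mice share a factor that moves few genes, and such a factor was not tested.

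**Figure D3:**
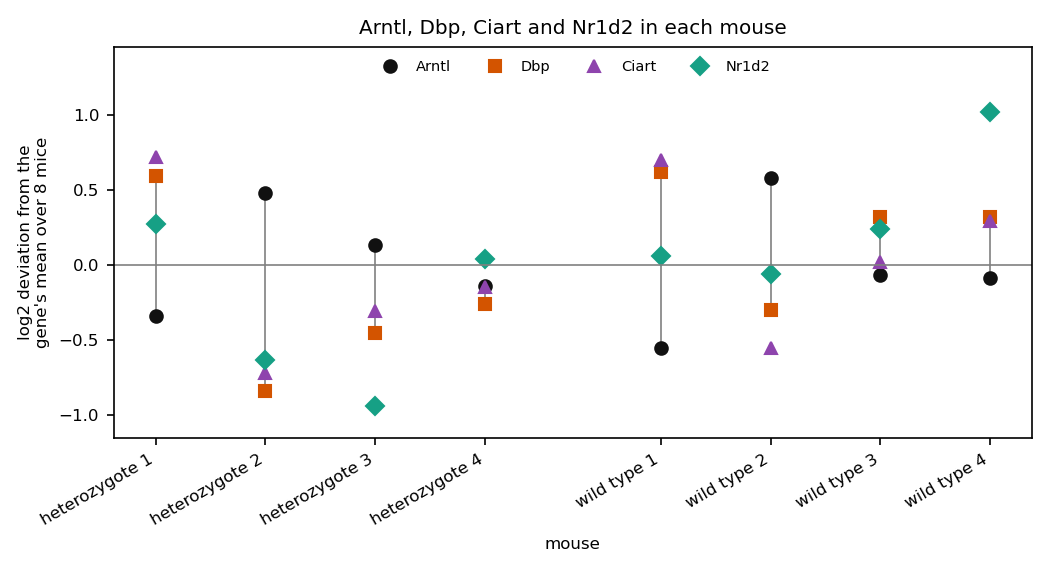
Log2 deviation of Arntl, Dbp, Ciart and Nr1d2 from each gene's mean over 8 mice (vertical axis), for heterozygotes 1 to 4 and wild types 1 to 4 (horizontal axis); grey lines join Arntl to Dbp. Arntl lies below 0 and Dbp above it in heterozygote 1 and wild type 1, and the reverse holds in heterozygote 2 and wild type 2.

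The relation of Arntl to each of the other 9 clock genes was measured over the 8 mice, and 0 of the 9 passed after adjustment. The closest was with Dbp (Pearson r = -0.827, Spearman rho = -0.857, exact permutation p = 0.0102 and 0.0107, n = 8), with an adjusted p of 0.0915 over the 9 relations and 1.0 over all 8145 genes. Without heterozygote 2 and wild type 2, the mice farthest from the median of Arntl, r was -0.784, and without heterozygote 3 it was -0.839. Taken as deviations from the genotype means, r was -0.896 (permutation p = 0.00365, adjusted p = 0.0328 over the 9 relations, n = 8). That permutation shuffled the deviations across genotypes and did not allow for the fitted means, so its p is not exact. Without wild type 2, r was -0.893 (adjusted p = 0.0232, exact permutation). Other settings weakened it: with median scaling r was -0.704 (exact permutation p = 0.0509, adjusted p = 0.369), and without wild type 1 it was -0.772 (exact permutation p = 0.0524, adjusted p = 0.35), so the unadjusted call was lost in both. Without adjustment, 3.93% of all genes had a p under 0.05 with Arntl (2.2% with positive and 1.73% with negative r), and 1 of the 9 clock genes, Dbp.

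The relations of Arntl with the Nr1d genes were negative but did not pass. With Nr1d2, r was -0.437 and rho -0.595 (exact permutation p = 0.281 and 0.132, adjusted p of r 0.662, n = 8; r = -0.319 without heterozygote 2 and wild type 2). With Nr1d1, r was -0.372 and rho -0.381 (exact permutation p = 0.366 and 0.36, adjusted p of r 0.662, n = 8; r = -0.880 without the same mice, and -0.119 without wild type 1). With Per2, r was -0.363 and rho -0.262 (exact permutation p = 0.368 and 0.536, adjusted p of r 0.662, n = 8), but r was 0.779 without those mice, so its sign rests on them. Per1 showed an r of -0.008 and a rho of 0.214 (exact permutation p = 0.986 and 0.619, adjusted p of r 0.986, n = 8; r = 0.353 without those mice).

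Clock, the partner of Arntl, had an r of 0.316 and a rho of 0.524 with it (exact permutation p = 0.454 and 0.197, adjusted p of r 0.681, n = 8; r = 0.205 without those mice). Cry2 had an r of 0.050 and a rho of 0.286 (exact permutation p = 0.905 and 0.501, adjusted p of r 0.986, n = 8; r = -0.007 without those mice). The probes of Per3 and Cry1 were detected on 1 and 0 arrays. Their r of -0.499 and -0.264 (exact permutation p = 0.207 and 0.535, adjusted p 0.662 and 0.688, n = 8) describes values near background.

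**Figure D4:**
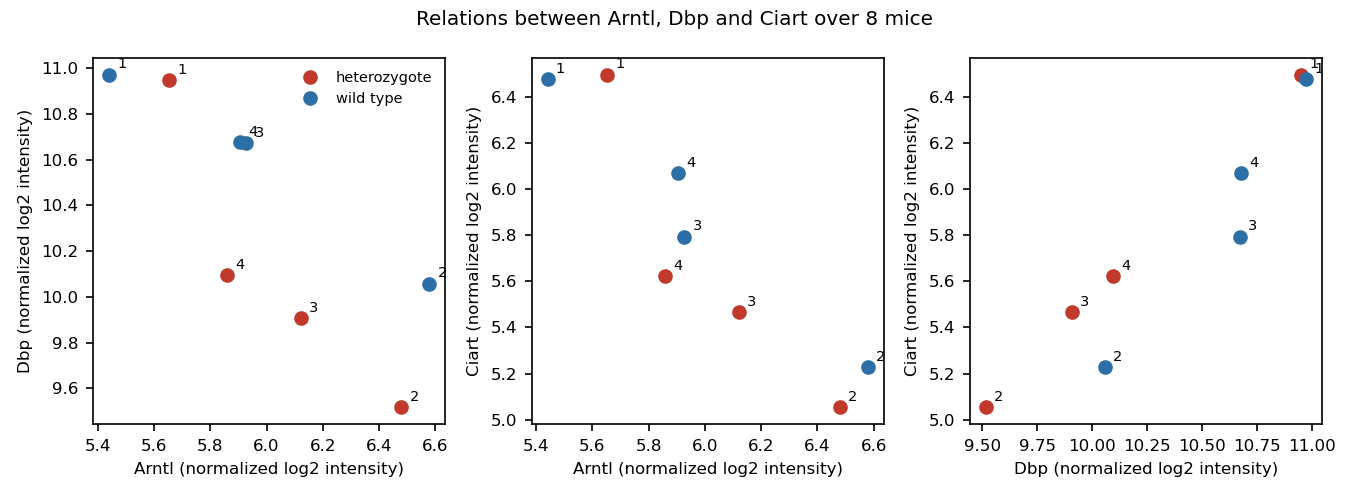
Normalized log2 intensities of Arntl and Dbp, Arntl and Ciart, and Dbp and Ciart in heterozygotes (red) and wild types (blue), with 1 point per mouse labelled by mouse number. Dbp and Ciart lie lower where Arntl lies higher (r = -0.827 and -0.924), and Dbp and Ciart lie high and low together (r = 0.946).

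Among all 28 pairs of the 8 detected clock genes, 3 had an unadjusted p under 0.05 and 0 passed after adjustment over the pairs. Besides Arntl with Dbp (adjusted p = 0.285, exact permutation) these were Nr1d2 with Dbp and Per1 with Cry2. For relations with Arntl and with Dbp, 3.93% and 3.54% of all genes had such a p. The share over pairs of all genes was not computed, so the count of pairs is not read against it. Nr1d2 and Dbp were mostly high or low in the same mice (r = 0.705, rho = 0.810, exact permutation p = 0.0482 and 0.0218, adjusted p of r 0.45, n = 8; r = 0.858 without heterozygote 3 and wild type 4). Per1 with Cry2 had an r of 0.725 and a rho of 0.690 (exact permutation p = 0.0423 and 0.0694, adjusted p of r 0.45, n = 8; r = 0.650 without heterozygotes 2 and 3). Per1 and Per2 had an r of 0.462 and a rho of 0.405 (exact permutation p = 0.245 and 0.327, adjusted p of r 0.735, n = 8; r = -0.370 without heterozygotes 2 and 3), so their relation rests on those mice.

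**Figure D5:**
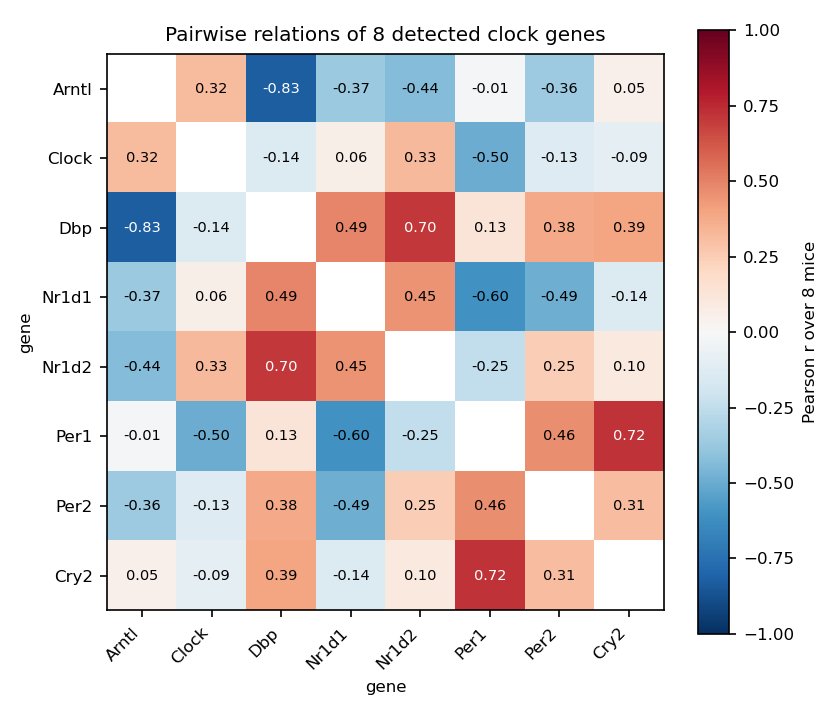
Pearson r over 8 mice for each pair of the 8 detected clock genes; red marks positive and blue negative values. The strongest entries are Arntl with Dbp (-0.827), Per1 with Cry2 (0.725) and Nr1d2 with Dbp (0.705), and none passed after adjustment over 28 pairs.

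A further list of 18 clock regulators covered activators, ROR receptors, D-box factors, kinases and ubiquitin ligases. All 18 had a probe, 11 passed the filter, and 0 of these passed the test between genotypes. Of the 11, 7 were higher and 4 lower, with a median difference of 0.11, where 53.1% of all genes were higher. Npas2 (an alternative partner of Arntl), Arntl2, Hlf, Bhlhe41 and Fbxl21 were detected on 0 of 8 arrays. The genes with the smallest unadjusted p in limma were the ubiquitin ligase subunit Btrc (a log2 difference of 0.36), the D-box repressor Nfil3 (a difference of 0.34), the E-box repressor Bhlhe40 (0.29) and the replication factor Tipin (0.20). Csnk1d, a kinase of PER proteins, was the 1 of the 11 genes in which the genotypes did not overlap, beside 2.61% of all genes. Its within-genotype SD of 0.047 was among the smallest of all genes. Its normalized values ran from 6.98 to 7.08 in heterozygotes and from 6.86 to 6.97 in wild types, a difference of 0.11 (limma adjusted p = 0.990). Its deposited intensities did overlap, at 108 to 130 in heterozygotes and 71.2 to 122 in wild types.

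Ciart (CHRONO), a repressor of the heterodimer and itself an E-box target, followed Dbp most closely of the regulators. Its deposited intensities were 75.6, 15.0, 36.5 and 37.8 in heterozygotes, against 52.0, 24.3, 40.7 and 43.4 in wild types. Heterozygote 1 was highest and heterozygote 2 lowest, and the genotypes overlapped, with a difference of -0.23 (95% interval -0.97 to 0.50; limma adjusted p = 0.991). Among 8145 genes, Ciart had the r with Dbp that ranked 2 from the highest (r = 0.946, rho = 0.952, exact permutation p = 0.000595 and 0.00114, n = 8) and the r with Arntl that ranked 5 from the lowest (r = -0.924, rho = -0.881, exact permutation p = 0.00179 and 0.00724, n = 8). Neither passed after adjustment over all 8145 genes (adjusted p = 0.859 and 0.861), where the smallest adjusted p of any gene was 0.202 for Dbp and 0.404 for Arntl. Without the mice farthest from the median of the anchor, r was 0.902 with Dbp and -0.880 with Arntl, and without heterozygote 3 it was 0.947 and -0.927. With each mouse left out in turn, r ran from 0.927 to 0.971 with Dbp and from -0.957 to -0.894 with Arntl.

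Of the 11 regulators, 1 (Ciart) was related to Arntl and 2 (Ciart and Nfil3) to Dbp at an unadjusted p under 0.05, where 3.93% and 3.54% of all genes were (for Dbp, 2.03% with positive and 1.51% with negative r). Nfil3, which competes with DBP at D-boxes, had an r of -0.762 and a rho of -0.762 with Dbp (exact permutation p = 0.0336 and 0.0368, adjusted p over all genes 0.995, n = 8; r = -0.521 without heterozygote 2 and wild type 1). Timeless had an r of -0.592 and a rho of -0.714 with Arntl (exact permutation p = 0.12 and 0.0576, adjusted p over all genes 1.0, n = 8; r = -0.359 without heterozygote 2 and wild type 2).

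A list of 15 genes described as rhythmic or clock-controlled in heart had 12 that passed the filter. None of them passed the test, with 8 higher, 4 lower and a median difference of 0.10, where 53.1% of all genes were higher. Those with the smallest unadjusted p in limma were the uncoupling protein gene Ucp3 (a log2 difference of -0.47), the triglyceride synthesis gene Dgat2 (0.42), the potassium channel subunit Kcnip2 (-0.53) and the pyruvate dehydrogenase kinase Pdk4 (0.23). Of the 12, 1 was related to Arntl and 1 to Dbp at an unadjusted p under 0.05, where 3.93% and 3.54% of all genes were. The 1 related to Arntl was the transferrin receptor Tfrc (r = 0.743, rho = 0.571, exact permutation p = 0.0352 and 0.151, adjusted p over all genes 1.0, n = 8; r = 0.303 without heterozygote 2 and wild type 2). The relation of Tfrc with Arntl rests on those mice. The cell cycle inhibitor gene Cdkn1a was the 1 related to Dbp (r = -0.795, rho = -0.762, exact permutation p = 0.0254 and 0.0368, adjusted p over all genes 0.995, n = 8; r = -0.934 without heterozygote 2 and wild type 1). Ppp1r3c, a glycogen-targeting phosphatase subunit, had an r of 0.671 and a rho of 0.491 with Arntl (exact permutation p = 0.0593 and 0.223, n = 8; r = 0.811 without heterozygote 2 and wild type 2). Fkbp5, a glucocorticoid-induced chaperone, had an r of 0.617 and a rho of 0.643 with Arntl (exact permutation p = 0.102 and 0.0962, n = 8). Its r was 0.205 without heterozygote 2 and wild type 2, so the relation of Fkbp5 rests on those mice.

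The genes most like Arntl over the 8 mice were Cd34, Efhd1, Prkcq, Sytl4, Tmem62 and Pcyt2, with r between 0.913 and 0.956. The genes most opposite to it were Pigx, Snrpa1, Lrp1, Psmd12, Ciart and Psenen, with r between -0.960 and -0.923. The genes most like Dbp were Cyb5a, Ciart, Kcnj3, Phykpl, Pcid2 and Bcas2, with r between 0.913 and 0.970, and those most opposite were Arhgap9, Fam89b, Fzd7, Myrip, Gal3st2 and Senp2, with r between -0.986 and -0.911. These genes were picked for their r among 8145, so the values carry no test. Ciart was the 1 gene of the clock lists among them. Dbp ranked 40 from the lowest in r with Arntl.

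Markers of other cell types were set beside these relations. Of 18 relations of Arntl and Dbp with the means of 9 marker lists, the smallest unadjusted p was 0.0862, for Arntl with smooth muscle (r = 0.632, rho = 0.500, exact permutation p = 0.0862 and 0.216, adjusted p of r 0.83, n = 8; r = 0.797 without heterozygote 2 and wild type 2). Some other relations were also closer without the mice farthest from the median of the anchor. Without heterozygote 2 and wild type 1, r of Dbp went from -0.470 to -0.881 with fibroblast and from -0.449 to -0.817 with smooth muscle markers. Others weakened or changed sign, as for Arntl with endothelial markers (0.358 to -0.176 without heterozygote 2 and wild type 2). These values carry no test. Of the 4 smooth muscle markers 3 passed the filter and Cnn1 was detected on 0 arrays. Their summed deposited intensity ranged from 5794 to 14400 in heterozygotes and from 5084 to 20080 in wild types. The adipocyte list, with 4 of 7 markers past the filter and Fabp4 and Retn detected on 0 arrays, summed to between 825 and 24650 in heterozygotes and between 3388 and 10690 in wild types. Of the 5 lung markers, Scgb1a1 of airway secretory cells alone passed the filter, with normalized levels of 4.30, 4.24, 13.44 and 8.99 in heterozygotes 1 to 4 and of 12.99, 4.46, 4.30 and 8.31 in wild types 1 to 4. The surfactant genes Sftpc, Sftpb and Sftpa1 were each detected on 1 array. The mean of the 4 atrial markers ran from 10.83 to 13.52 in heterozygotes and from 11.56 to 13.38 in wild types, highest in heterozygote 3. The part of these cell types in the spread of the clock genes was not tested.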

How the data were processed

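Bead arrays of 8 left ventricles were used, 4 per genotype, grouped by genotype label; the mice are labelled biological replicates. RNA was column-purified with DNase treatment and amplified to biotinylated cRNA, per the labels' protocols. The sources used here name no scanner or software. The deposited table holds a mean bead intensity per probe and array, per the file headers; it is linear and already background-subtracted, since 23.0% to 27.2% of values per array lie below 0. The authors' table also holds a detection p-value per probe, with steps of 1 in 798. A deposited table of intensity values normalized by the authors (method not given) was tried in their place.

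Background correction used normexp (nec of limma 3.58.1 in R 4.3.3, offset 16), followed by quantile normalization and log2. The correction and offset pull differences of dim probes towards 0. A probe was kept when its detection p was under 0.01 on 4 or more of the 8 arrays (10547 probes), and each of 8146 genes was represented by its brightest kept probe. Genotypes were compared by moderated two-sided tests in limma (lmFit, eBayes), adjusted over all genes by Benjamini-Hochberg at 0.05. Correlations carry two-sided exact permutation tests (Python 3.11.15, scipy 1.17.1) with the same adjustment over the family named. For deviations from the genotype means the permutation p is not exact. The methods were checked on simulated data. Of 18120 distinct symbols, 12036 were current and 5207 synonyms of 1 RefSeq gene (GRCm38.p6).

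Mouse numbers were not taken as pairs, since the labels give them only as those of replicates. Over all genes, the deviations of same-numbered mice correlated positively for number 4 alone (0.209). The named genes are the 10 clock genes. From the other lists, up to 4 genes by smallest unadjusted p and 4 by r with Arntl are named, with the 6 highest and 6 lowest r with Arntl and with Dbp. Csnk1d, Nfil3 and Cdkn1a are also named for values given beside them. A further gene of the regulator list is not reported here, and the list's counts leave it out. Members and lists were chosen with earlier results of these data known. Relations between all pairs, with all genes and with marker lists were added after the data were seen. With 8 arrays, their number limits the precision.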

Additional observations from a re-analysis of the deposited data

Results flagged for a closer look

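In groups of 4 mice, the gap of the highest or lowest value to its neighbour was compared with the range of the group by Dixon's test at 95%. This marked 1 of 70 groups, where chance would mark 3.5. Pdk4 was 11.51 in heterozygote 2, where the other heterozygotes lay between 11.23 and 11.26.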

How the results depend on the processing

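With 4 mice a genotype, the 95% intervals of the clock genes are wide, and the probes of Cry1 and Per3 were detected on 0 and 1 arrays. Under every other setting tried for the genotype comparison (normalization, background, filter, probe choice, weights, variance model and each mouse left out), 0 genes and 0 clock genes passed (limma adjusted p), including the replicate block on mouse number, which gave Dbp an unadjusted p of 0.0293 and Nr1d2 of 0.0380 (limma; adjusted p 1.0 each). Median scaling moved the median of all genes to 0.156 and Nr1d1 to 0.011, and array weights put Per1 at -0.020 and Per2 at -0.12. Larger moves without a change of sign were Cry2 at -0.89 in the authors' normalized values, Clock at -0.03 and Dbp at -0.30 with median scaling, and Nr1d2 at -0.34 with array weights, which also gave Cry2 an unadjusted p of 0.0277 (limma). With 1 mouse left out, Arntl ran from -0.11 to 0.27, Nr1d1 from -0.28 to 0.0013, Per1 from -0.11 to 0.22 and Per2 from -0.15 to 0.30. Clock genes whose relation with Arntl passed numbered 1 (Dbp) with deviations from genotype means, where the p is not exact. With 1 mouse left out they numbered 0 to 1. In those fits r with Dbp ran from -0.893 to -0.759, with Per1 from -0.349 to 0.528, with Cry2 from -0.440 to 0.459, with Clock from 0.092 to 0.528, with Per2 from -0.712 to -0.078, with Nr1d1 from -0.627 to -0.119 and with Cry1 from -0.674 to 0.260. The r with Per1 was 0.034 with cyclic loess, 0.377 with median scaling and 0.214 as rho, and with Cry2 -0.054 in the authors' normalized values. The cause was not tested.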
